A study of Mus musculus with 6 samples.

Results

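The genes described are 10 that encode the core enzymes of mitochondrial fatty acid oxidation, out of 49315 rows of the count table. They were taken by symbol, and each matched 1 row. *Cpt1a* and *Cpt2* encode the carnitine palmitoyltransferases. *Acadm*, *Acadl* and *Acadvl* encode the acyl-CoA dehydrogenases for medium, long and very long chains. *Hadha* and *Hadhb* encode the subunits of the mitochondrial trifunctional protein, and *Etfa*, *Etfb* and *Etfdh* encode the electron transfer flavoprotein and its dehydrogenase.

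RNA was sequenced from RAW264.7 cells, an established mouse macrophage line labelled as WT, after exposure to SKI-II at 4 μg/mL, 3 libraries, or to the same volume of the vehicle DMSO, 3 libraries. Exposure lasted 24 h. SKI-II is a synthetic compound that inhibits sphingosine kinases. All 6 libraries come from this single line, and nothing in the labels says whether the replicates were separate cultures, so the p-values measure only the spread between these libraries. The comparison asks how the compound changed the transcriptome of macrophages; the study also followed mitochondrial respiration in separate assays.

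A fatty acid enters the mitochondrion only after it has been joined to coenzyme A and handed to carnitine. CPT1A, on the outer membrane, makes the acylcarnitine, the carrier SLC25A20 brings it across the inner membrane, and CPT2 makes the acyl-CoA again. Each turn of the spiral then oxidizes, hydrates, oxidizes and cleaves the chain, releasing acetyl-CoA. The electrons of the first oxidation pass through the electron transfer flavoprotein and ETFDH to ubiquinone of the respiratory chain. In macrophages this route is usually discussed together with alternative activation, whereas inflammatory activation is linked to glycolysis.

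The promoters of *Acadl*, *Etfa* and *Hadhb* are shown because these 3 genes were lower with SKI-II at an adjusted p below 0.05. Of these results only that of *Acadl* held in all 13 alternative fits. The promoter of *Hadhb* is shown also because it shares its upstream region with *Hadha*. The windows run from 250 bases before to 50 bases after the RefSeq start in GRCm38.p6, 300 bases each, and are written 5′ to 3′ on the strand of the gene. In the *Acadl* window (chr1:66863260-66863559, minus strand) and the *Etfa* window (chr9:55512194-55512493, minus strand), capitals mark matches to the GC box GGGCGG or the CCAAT box CCAAT on either strand. In the *Hadhb* window (chr5:30155003-30155302, plus strand), capitals mark the 228 bases that also lie in the window of *Hadha*.
Acadl: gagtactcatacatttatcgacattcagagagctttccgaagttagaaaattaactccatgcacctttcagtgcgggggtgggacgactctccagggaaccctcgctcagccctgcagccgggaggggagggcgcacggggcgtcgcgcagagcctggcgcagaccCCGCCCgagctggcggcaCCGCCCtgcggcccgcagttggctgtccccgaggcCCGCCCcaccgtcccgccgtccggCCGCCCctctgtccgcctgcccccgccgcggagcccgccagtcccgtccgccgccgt
Etfa: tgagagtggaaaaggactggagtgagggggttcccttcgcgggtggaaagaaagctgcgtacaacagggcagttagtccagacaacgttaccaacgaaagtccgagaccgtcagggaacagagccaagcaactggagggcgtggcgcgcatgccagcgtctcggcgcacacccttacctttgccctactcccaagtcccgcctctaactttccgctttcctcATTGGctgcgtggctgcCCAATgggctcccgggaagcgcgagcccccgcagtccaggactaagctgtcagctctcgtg
Hadhb: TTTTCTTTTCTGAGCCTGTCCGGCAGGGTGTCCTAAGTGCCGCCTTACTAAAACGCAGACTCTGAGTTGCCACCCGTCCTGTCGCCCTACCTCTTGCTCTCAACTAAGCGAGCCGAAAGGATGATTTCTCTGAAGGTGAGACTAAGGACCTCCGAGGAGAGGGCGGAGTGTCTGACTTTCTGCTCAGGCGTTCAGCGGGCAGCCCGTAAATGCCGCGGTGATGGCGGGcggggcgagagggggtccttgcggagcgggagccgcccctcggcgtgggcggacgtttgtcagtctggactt

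*Hadha* and *Hadhb* lie head to head on chromosome 5, with 272 bases between their RefSeq starts. All 10 genes matched a promoter window. The GC box was found in 7 of them against 35.7% of the 32851 windows of all genes, with 4 matches in the *Acadl* window. The match of *Hadha* and 1 of those of *Hadhb* are the same bases of the shared region, so that site is counted in both windows. The CCAAT box was found in 4 of the 10, including *Etfa* with 2 matches, against 37.4% of all windows. The nuclear receptor core AGGTCA was in 3 of 10 (*Cpt1a*, *Acadm* and *Acadvl*) against 16.3%. The longer element TCAAGGTCA of estrogen-related receptors, which contains that core, was in none of the 10 against 0.423% of all windows, and the antioxidant response core TGACNNNGC was also in none against 12.4%. Both strands were searched. These letters describe a window and say nothing of binding.

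The libraries held between 12495957 and 20050677 counts. Normalized read counts are counts rescaled, with TMM factors, to a library of average effective size. Of 8 macrophage markers all were tested, and *Csf1r*, *Spi1*, *Cd68* and *Ptprc* were not called, *Adgre1*, *Itgam* and *Lyz2* were lower and *Cd14* was higher with SKI-II. Their summed level was 141471 to 206356 normalized counts in DMSO and 86874 to 124388 in SKI-II. Single abundant genes set the direction of this sum. Without *Lyz2* it was 50920 to 55783 in DMSO and 59143 to 63255 in SKI-II, and without *Lyz2* and *Cd14* it was 44366 to 48888 in DMSO and 40686 to 42707 in SKI-II. The part of these shifts in the results below was not tested. Of 16 markers of T cells, B cells, fibroblasts, epithelium, hepatocytes and adipocytes none had enough reads for a test, 9 were at 0 in every library, and their summed level stayed at or below 26.9 normalized counts in a library.

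In RAW264.7 macrophages treated with SKI-II, the changes of core fatty acid oxidation genes that passed the test were small decreases. *Acadl*, *Etfa* and *Hadhb* fell by 0.56, 0.44 and 0.32 on the log2 scale, to 0.677, 0.736 and 0.802 of the DMSO level. The call of *Hadhb* was lost with DESeq2 (adjusted p = 0.0695) and limma-voom (0.0516), and held in 1 of 13 alternatives. None of the 10 genes rose by edgeR's test, nor by DESeq2 or limma-voom, and 0 of them were higher at an unadjusted p below 0.05. For comparison, edgeR's test called 18.4% of all 12274 tested genes up and 19.7% down. Whether 0 rises and 3 falls among 10 genes depart from these shares was not tested. The other 7 of the 10 genes lay between a log2 fold change of -0.24 for *Etfb* and 0.26 for *Acadvl* and did not pass the test. The 10 genes took 0.0823% to 0.0840% of the counts of a DMSO library and 0.0710% to 0.0726% of those of an SKI-II library.

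All 10 genes had enough reads for the test, with 222 to 3620 counts in a library. At an adjusted p below 0.05 (quasi-likelihood test of edgeR, adjusted by Benjamini-Hochberg over all 12274 genes tested), 3 of 10 were lower and 0 higher, whereas 19.7% of all tested genes were lower and 18.4% higher. The count of 3 was 1 without DMSO replicate 2 or 3 or SKI-II replicate 1 or 2, and 2 with DESeq2, limma-voom, another scaling or another filter. With an absolute log2 fold change above 1 as a further condition 0 of 10 passed in either direction, against 8.28% of tested genes upward and 7.44% downward. The median log2 fold change of the 10 was -0.21, against 0.00377 over all tested genes, and 8 of 10 values were below 0. In 5 of 10 genes (*Acadl*, *Etfa*, *Hadhb*, *Hadha* and *Cpt2*) every SKI-II library lay below every DMSO library, which was the case for 25.5% of all tested genes. In bulk RNA, less of a transcript in each cell and fewer cells that carry it cannot be told apart.

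**Figure D1:**
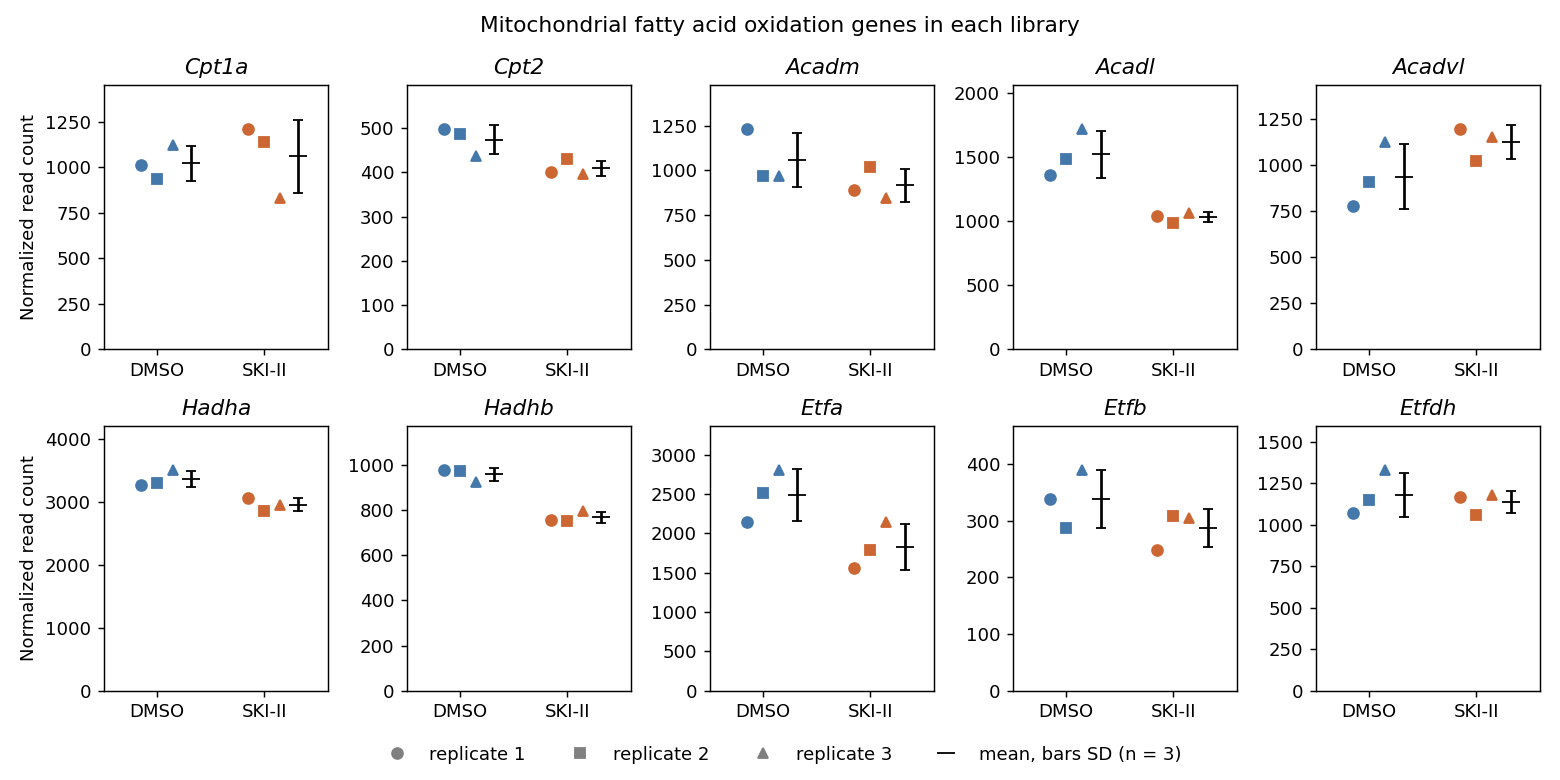
Normalized read counts (y axis, from 0) of each of the 10 genes in the 3 DMSO and 3 SKI-II libraries, with the replicate shown by the symbol and the mean with its SD (n = 3) in black. *Acadl*, *Hadhb*, *Etfa*, *Hadha* and *Cpt2* show groups that do not overlap, while the other 5 genes overlap.

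Among the carnitine palmitoyltransferases, *Cpt1a* (chromosome 19, 3322334 to 3385733, plus strand, positions here and below from GENCODE M21 on GRCm38) encodes the enzyme at which malonyl-CoA controls entry into the pathway. Its normalized counts were 1011, 934 and 1122 in DMSO replicates 1, 2 and 3 and 1211, 1139 and 831 in SKI-II replicates 1, 2 and 3, the order kept for every gene below. The groups overlapped, since SKI-II replicate 3 was the lowest of all 6 libraries while SKI-II replicates 1 and 2 were the highest. The log2 fold change was 0.05 (standard error 0.16, 95% interval -0.30 to 0.41, adjusted p = 0.828). With 1 library left out it lay between -0.06 and 0.20, and its sign turned when DMSO replicate 2 or either of SKI-II replicates 1 and 2 was omitted.

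*Cpt2* (chromosome 4, 107903981 to 107923610, minus strand) encodes the transferase of the inner membrane that restores the acyl-CoA. Its normalized counts were 498, 486 and 437 in DMSO, against 401, 429 and 398 under SKI-II. All SKI-II values lay below all DMSO values, but the gap between SKI-II replicate 2 and DMSO replicate 3 was small. The log2 fold change of -0.21 (standard error 0.13, 95% interval -0.51 to 0.09) had an adjusted p of 0.245. The genes of the other CPT1 isoforms had too few reads for the test, with at most 4 counts of *Cpt1b* and at most 10 of *Cpt1c* in a library.

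The acyl-CoA dehydrogenases carry out the first oxidation, each for a range of chain lengths. *Acadl* (chromosome 1, 66830839 to 66863277, minus strand), the long-chain enzyme, had the largest change of the 10 genes. Its normalized counts were 1363, 1482 and 1719 in DMSO, against 1042, 986 and 1064 under SKI-II. Every SKI-II library was below every DMSO library, and the SKI-II libraries were closer together (SD 40.4) than the DMSO libraries (SD 181, n = 3 each). It fell by 0.56 on the log2 scale (standard error 0.13, 95% interval -0.84 to -0.28, adjusted p = 0.00645), which is 32.3% fewer reads. With 1 library left out, the log2 fold change lay between -0.65 and -0.47 and the adjusted p was at most 0.034.

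*Acadm* (chromosome 3, 153922357 to 153944632, minus strand), the medium-chain enzyme, had 1231, 967 and 970 normalized counts in DMSO, against 888, 1018 and 843 under SKI-II. The groups overlapped through SKI-II replicate 2, and the highest value was that of DMSO replicate 1. The log2 fold change was -0.20 (standard error 0.14, 95% interval -0.52 to 0.11, adjusted p = 0.288), and it ran from -0.28 without SKI-II replicate 2 to -0.09 without DMSO replicate 1.

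*Acadvl* (chromosome 11, 70010183 to 70015411, minus strand), the very-long-chain enzyme of the inner membrane, was the member with the highest fold change. It had 780, 908 and 1128 normalized counts in DMSO, against 1197, 1021 and 1155 under SKI-II. DMSO replicate 3 lay among the SKI-II libraries, and the log2 fold change of 0.26 (standard error 0.15, 95% interval -0.08 to 0.60) had an adjusted p of 0.211. It was 0.13 without DMSO replicate 1 and 0.41 without DMSO replicate 3 (adjusted p = 0.0515). Of its annotated exon bases, 42.9% are shared with exons of *Dvl2* on the opposite strand, a Wnt signalling gene. *Dvl2* had a log2 fold change of -0.50 (adjusted p = 0.104). The sources used here do not give the strand setting of the counting, so reads of these genes on the shared bases cannot be told apart.

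The trifunctional protein carries the later steps for long chains, with the hydratase and the hydroxyacyl-CoA dehydrogenase on the alpha subunit and the thiolase on the beta subunit. *Hadha* (chromosome 5, 30118304 to 30155162, minus strand) encodes the alpha subunit. It had 3272, 3294 and 3501 normalized counts in DMSO, against 3066, 2851 and 2949 under SKI-II. The groups did not overlap, yet the log2 fold change was -0.18 (standard error 0.11, 95% interval -0.42 to 0.06, adjusted p = 0.211).

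*Hadhb* (chromosome 5, 30155248 to 30184593, plus strand), the beta subunit, had 977, 974 and 927 normalized counts in DMSO, against 756, 754 and 798 under SKI-II. Both groups were narrow and did not overlap. It fell by 0.32 on the log2 scale (standard error 0.11, 95% interval -0.57 to -0.06), with an adjusted p of 0.0498 that lies at the threshold. The call was lost whichever library was omitted, where the adjusted p ran from 0.067 (without DMSO replicate 3) to 0.154 (without DMSO replicate 2). The direction held in each of these fits.

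The electron transfer flavoprotein is a pair of 1 alpha and 1 beta subunit that collects electrons from the acyl-CoA dehydrogenases. *Etfa* (chromosome 9, 55454508 to 55512243, minus strand), the alpha subunit, had 2147, 2519 and 2804 normalized counts in DMSO, against 1567, 1783 and 2142 under SKI-II. SKI-II replicate 3 came just under DMSO replicate 1, so the groups barely separated. It fell by 0.44 on the log2 scale (standard error 0.15, 95% interval -0.78 to -0.11, adjusted p = 0.0411). The call was lost without DMSO replicate 2 (adjusted p = 0.115), DMSO replicate 3 (0.114), or the SKI-II replicates 1 (0.117) and 2 (0.122), each on its own, and the log2 fold change then reached -0.35.

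*Etfb* (chromosome 7, 43444083 to 43457800, plus strand), the beta subunit, had 339, 287 and 389 normalized counts in DMSO, against 248, 308 and 305 under SKI-II. The groups overlapped, and the log2 fold change was -0.24 (standard error 0.17, 95% interval -0.62 to 0.15, adjusted p = 0.310). It ran from -0.35 without DMSO replicate 2 to -0.13 without DMSO replicate 3. Exons of the annotated gene *Gm45233* on the same strand cover most of the 58.3% of *Etfb* exon bases that are shared with another gene. *Gm45233* itself held 4 counts over the 6 libraries, so the level of *Etfb* is uncertain if reads on shared bases were dropped.

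*Etfdh* (chromosome 3, 79603788 to 79629500, minus strand) encodes the membrane enzyme that hands the electrons to ubiquinone. It had 1069, 1147 and 1328 normalized counts in DMSO, against 1168, 1061 and 1178 under SKI-II, and the groups overlapped. The log2 fold change was -0.06 (standard error 0.13, 95% interval -0.34 to 0.23, adjusted p = 0.755), and 0.03 without DMSO replicate 3. The neighbouring gene *Ppid*, a cyclophilin 138 bases away on the opposite strand, fell by 0.34 (adjusted p = 0.0381). The gene *4930579G24Rik*, which shares 278 exon bases with *Etfdh*, fell by 1.11 (adjusted p = 0.00295).

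**Figure D2:**
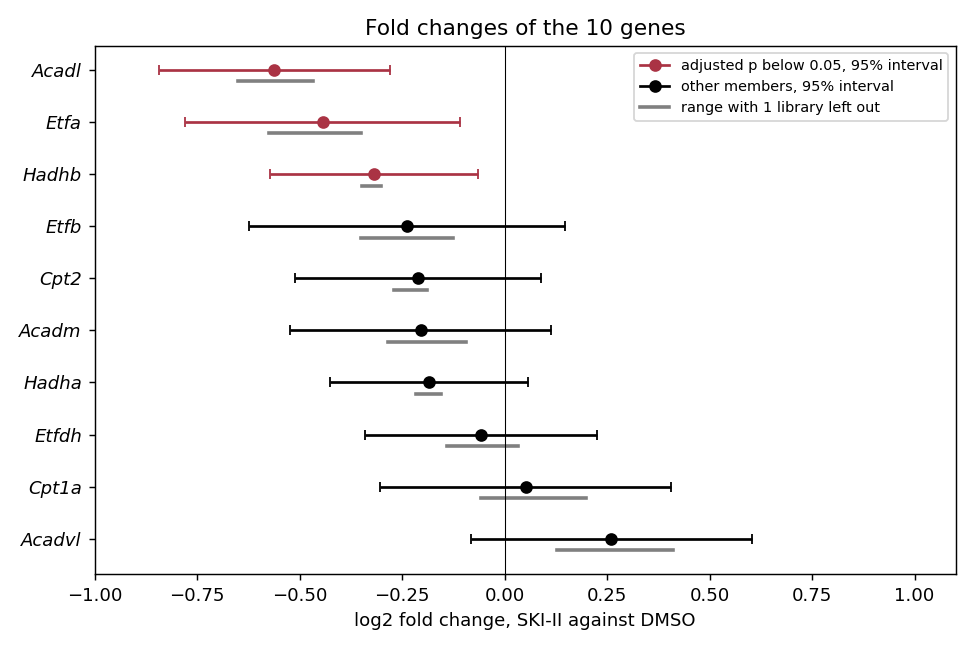
Log2 fold changes of SKI-II against DMSO (x axis) for the 10 genes, with 95% intervals as bars and, in grey, the range with 1 library left out. Red points passed an adjusted p below 0.05, for *Acadl* at -0.56, *Etfa* at -0.44 and *Hadhb* at -0.32, and no interval reaches 1 or -1.

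All the 95% intervals of the 10 genes lay within -0.84 and 0.60 on the log2 scale. For the 7 genes that did not pass the test, a change of 1 on that scale, up or down, thus lay outside the interval, while a decrease as small as that of *Hadhb* lay inside it for 5 of them.

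Levels can be compared between genes only per length. As CPM, which sets every library to the same scaled total, per kilobase of the principal transcript, *Etfa* had the highest level in DMSO, 112 ± 14.8 (SD, n = 3), and remained the highest in SKI-II at 82.0 ± 13.0. *Hadha* at 52.1 ± 1.96 and *Acadl* at 49.5 ± 5.90 followed and overlapped in DMSO. Then came *Acadm* at 32.2 ± 4.61, *Etfdh* at 31.0 ± 3.48, *Hadhb* at 29.2 ± 0.859, *Acadvl* at 27.0 ± 5.06 and *Etfb* at 23.6 ± 3.57, a run in which each gene overlapped the next. The carnitine palmitoyltransferases were lowest, *Cpt1a* at 14.8 ± 1.37 and *Cpt2* at 12.5 ± 0.859, and these levels did not overlap in DMSO. In SKI-II, *Acadvl* at 32.3 ± 2.65 took the fourth place after *Acadl* at 33.5 ± 1.31. There the libraries of *Acadvl* overlapped those of *Acadl* above it and of *Etfdh* below it. With the length of all annotated exons in place of the principal transcript *Etfa* was still the highest, but every other gene changed its place. *Cpt2* moved from place 10 to place 7, above *Etfdh* (from 5 to 8) and *Hadhb* (from 6 to 9), so that *Cpt2* was then not among the lowest. *Acadvl* moved from place 7 to 4 and *Etfb* from 8 to 5. Both share many exon bases with other genes, so their levels and places are uncertain if reads on those bases were dropped.

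Genes whose products work together were also compared by their ratio within a library. For 6 pairs the exact permutation test over the 6 libraries (two-sided) can give no p below 0.1. *Etfdh*/*Etfa* was the only pair whose groups separated, with log2 ratios of -1.01, -1.14 and -1.08 in DMSO and -0.42, -0.75 and -0.86 in SKI-II. SKI-II was higher by 0.39 (exact permutation p = 0.1, 0.24 adjusted over the 6 pairs). *Hadha*/*Hadhb*, the subunits of 1 enzyme with a shared upstream region, had 3.50 reads of *Hadha* per read of *Hadhb* in DMSO, against 3.84 under SKI-II, a log2 difference of 0.14 (exact permutation p = 0.2, adjusted 0.24). *Etfa*/*Etfb* differed by -0.21, *Cpt1a*/*Cpt2* by 0.25 and *Acadvl*/*Acadm* by 0.47 on the log2 scale, each with an exact permutation p of 0.2. *Acadl*/*Acadm* differed by -0.36 (exact permutation p = 0.3). Shared exon bases leave the counts of *Etfb* and *Acadvl* uncertain, and with them the *Etfa*/*Etfb* and *Acadvl*/*Acadm* ratios. With 1 library left out no difference changed sign, but most sizes moved. *Etfa*/*Etfb* reached -0.088 without DMSO replicate 2 and -0.32 without DMSO replicate 1. *Cpt1a*/*Cpt2* ran from 0.13 without SKI-II replicate 1 to 0.39 without SKI-II replicate 3. *Acadvl*/*Acadm* was 0.23 without DMSO replicate 1, and *Acadl*/*Acadm* ran from -0.55 without DMSO replicate 1 to -0.21 without DMSO replicate 3. *Etfdh*/*Etfa* stayed between 0.27 and 0.49, and *Hadha*/*Hadhb* between 0.097 and 0.19.

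**Figure D3:**
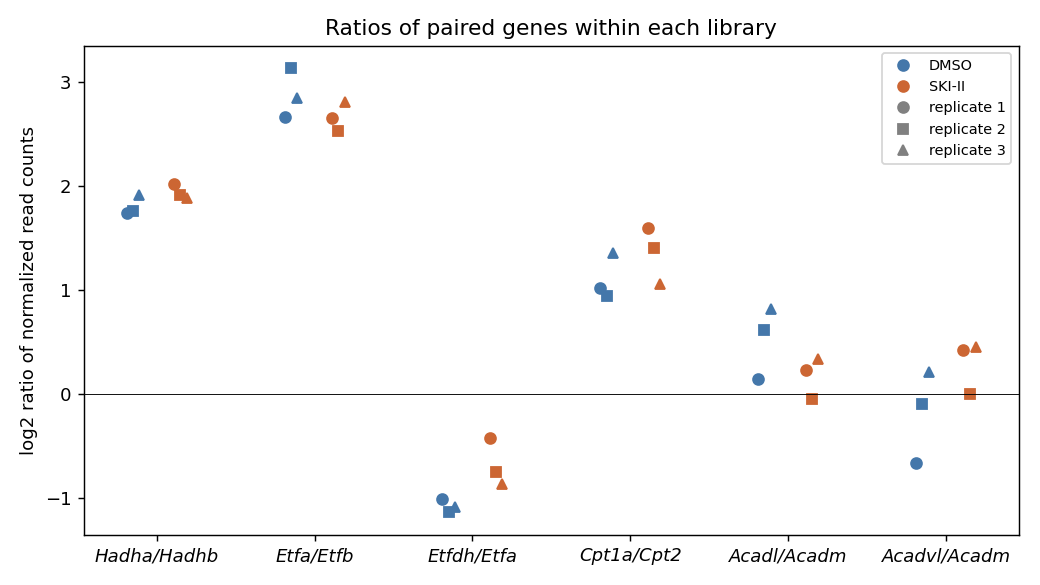
Log2 ratios of normalized read counts (y axis) for 6 gene pairs in each library, with the group shown by the colour and the replicate by the symbol. The groups overlap for all pairs but *Etfdh*/*Etfa*, where SKI-II lies higher by 0.39.

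The pathway around the 10 genes was read from 65 further genes in 5 lists, of which 54 had enough reads for the test. Some changes here were larger than in the 10 genes, in both directions. With SKI-II 10 of the 54 genes rose and 18 fell at an adjusted p below 0.05, where 18.4% and 19.7% of all tested genes did. The other 26 did not pass, and the median log2 fold change of the 54 was -0.11, against 0.00377 over all tested genes. Beyond an absolute log2 fold change of 1, 2 of the 54 rose and 5 fell, where 8.28% and 7.44% of all tested genes did. In every fit that left out 1 library, 4 of the 10 higher and 12 of the 18 lower calls held. Of the 11 genes that were not tested, 6 were listed at 0 in all libraries. Whether a row at 0 comes from the annotation used for counting was not tested.

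For carnitine and activation, the steps before the mitochondrial matrix, 2 of 7 tested genes rose and 2 fell, with a median log2 fold change of 0.09. Of the rises 1 was lost when DMSO replicate 2 or either of SKI-II replicates 2 and 3 was omitted. *Slc25a20*, the carnitine-acylcarnitine carrier that works between CPT1A and CPT2, had 243, 190 and 265 normalized counts in DMSO, against 417, 410 and 429 under SKI-II. All SKI-II libraries were above all DMSO libraries, a rise of 0.85 on the log2 scale (standard error 0.16, adjusted p = 0.00314). *Acsl3*, an acyl-CoA synthetase of the endoplasmic reticulum and lipid droplets, went the other way. It had 1568, 1634 and 1999 normalized counts in DMSO, against 790, 722 and 978 under SKI-II, and fell by 1.06 (standard error 0.15, adjusted p = 0.000618).

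Among the other mitochondrial oxidation enzymes, 5 of 18 tested genes rose and 5 fell, with a median of -0.09. Without DMSO replicate 2, 3 of these rises and 3 of these falls held. *Acat1*, the acetyl-CoA acetyltransferase that splits acetoacetyl-CoA, had 2323, 2166 and 2350 normalized counts in DMSO, against 517, 744 and 765 under SKI-II. With the largest decrease in the lists, it fell by 1.75 on the log2 scale (standard error 0.16, 95% interval -2.10 to -1.40, adjusted p = 4.32e-05). *Acot2*, a mitochondrial acyl-CoA thioesterase, had the largest increase, from 256, 293 and 298 normalized counts in DMSO to 1437, 1192 and 1159 in SKI-II. It rose by 2.16 on the log2 scale (standard error 0.14, adjusted p = 9.34e-06). *Acot2* belongs to a cluster of closely related thioesterase genes, so its count is uncertain where reads match several copies.

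*Etfrf1* and *Etfbkmt*, whose products act on the electron transfer flavoprotein, moved in opposite directions. *Etfrf1*, a regulatory factor of the flavoprotein, rose by 1.24 (adjusted p = 0.000372), from 175, 166 and 152 normalized counts to 427, 392 and 341. *Etfbkmt*, a methyltransferase of the beta subunit, had few reads, 68.0, 72.0 and 67.3 normalized counts in DMSO, against 14.5, 30.5 and 46.4 under SKI-II. It fell by 1.15 (adjusted p = 0.0370), and the call was lost in 5 of the 6 fits without 1 library, all but that without SKI-II replicate 3, with an adjusted p of at most 0.0998.

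Of the enzymes of the matrix that act on shorter chains, 4 are given here. *Acads*, the short-chain acyl-CoA dehydrogenase, fell by 0.60 (adjusted p = 0.00813), from 1070 ± 145 to 705 ± 66.5 normalized counts (SD, n = 3). *Echs1*, the short-chain enoyl-CoA hydratase, fell by 0.86 (adjusted p = 0.00413), from 1109 ± 186 to 611 ± 123. *Hadh*, the dehydrogenase of the next step, had a log2 fold change of -0.06 (95% interval -0.41 to 0.30, adjusted p = 0.811), and *Acaa2*, the thiolase, had -0.13 (95% interval -0.45 to 0.19, adjusted p = 0.501).

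In the list of odd-chain oxidation and ketone bodies, 3 of 7 tested genes fell, none rose, and all 7 log2 fold changes were below 0, with a median of -0.38. *Oxct1*, which activates acetoacetate for use as fuel, had 10176, 10560 and 12662 normalized counts in DMSO, against 3766, 4344 and 4602 under SKI-II. It fell by 1.39 (standard error 0.14, adjusted p = 8.64e-05).

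Of the regulators, 1 of 8 tested genes rose and 3 fell, with a median of -0.24. *Ppargc1b*, a coactivator of mitochondrial genes, had 491, 475 and 401 normalized counts in DMSO, against 250, 216 and 235 under SKI-II, and fell by 0.97 (standard error 0.15, adjusted p = 0.00103). Its relative *Ppargc1a* was at 0 in every library. *Ppara* had 2 counts in all and *Pparg* at most 4 in a library, whereas *Ppard*, the third receptor of this family, was expressed with a log2 fold change of -0.22 (adjusted p = 0.355).

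Malonyl-CoA, the inhibitor of CPT1, is made by the carboxylases ACACA and ACACB and removed by MLYCD. *Acaca* had 3702, 3333 and 3646 normalized counts in DMSO, against 2060, 1812 and 2130 under SKI-II, a fall of 0.83 (adjusted p = 0.000522). *Acacb*, the form at the mitochondrial membrane, had 116, 145 and 177 normalized counts in DMSO, against 264, 191 and 322 under SKI-II, a rise of 0.83 (adjusted p = 0.0217). That call was lost without DMSO replicate 1 or 2 or SKI-II replicate 1 or 3, at an adjusted p of up to 0.0767. *Mlycd* fell by 0.64 (adjusted p = 0.0143), from 315, 262 and 292 normalized counts to 186, 166 and 206, and missed the threshold without SKI-II replicate 2 (adjusted p = 0.0653).

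Peroxisomes shorten very long chains by a parallel route. Here 2 of 14 tested genes rose and 5 fell, with a median of 0.03. Neither rise held when DMSO replicate 2 or either of SKI-II replicates 1 and 3 was omitted. Whichever library was omitted, 3 of the 5 falls held, and the other 2 were lost when replicate 1 of either group was omitted. *Slc25a17*, a peroxisomal carrier of cofactors such as coenzyme A, had 829, 879 and 986 normalized counts in DMSO, against 251, 337 and 249 under SKI-II, and fell by 1.69 (standard error 0.16, adjusted p = 5.47e-05). *Decr2*, the peroxisomal dienoyl-CoA reductase, rose by 0.53 (adjusted p = 0.0344), a call lost without DMSO replicate 2 or SKI-II replicate 1 or 3, at an adjusted p of up to 0.157.

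**Figure D4:**
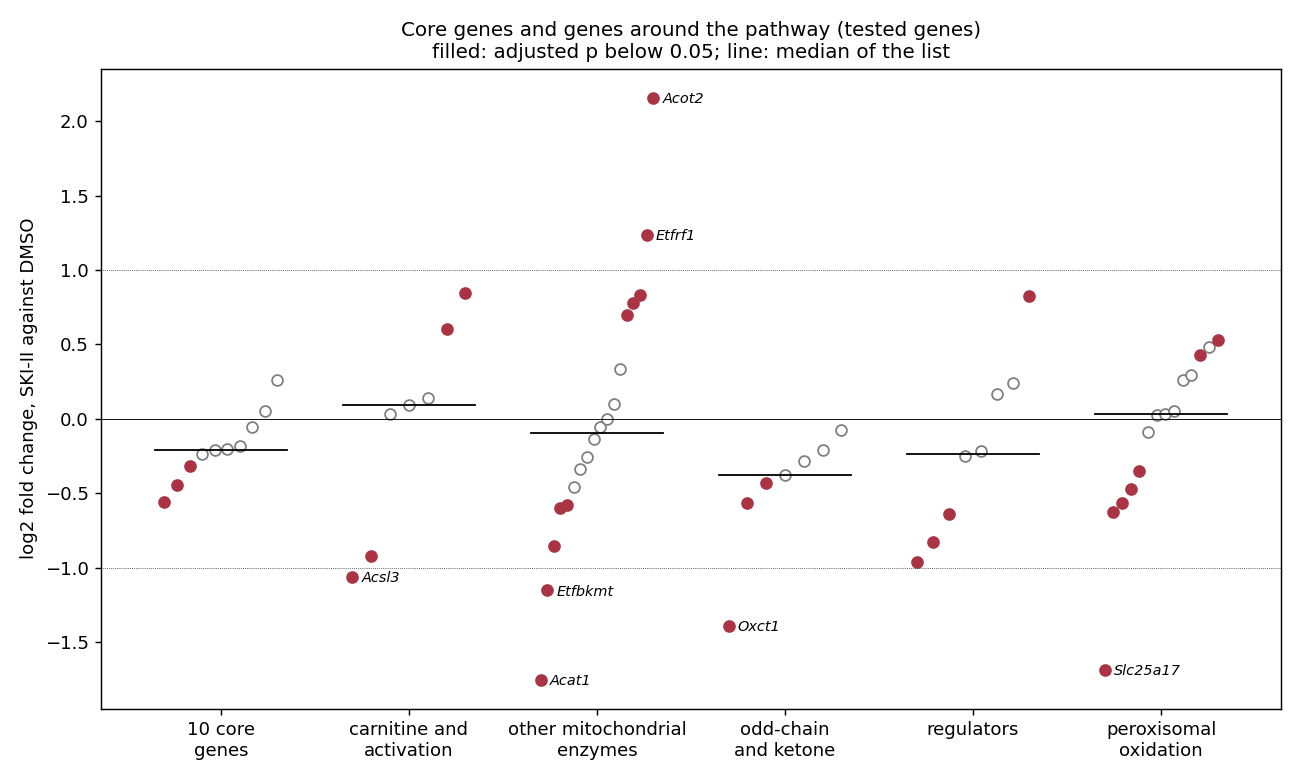
Log2 fold changes of SKI-II against DMSO (y axis) for the 10 genes and the tested genes of the 5 further lists, 1 point per gene, filled where the adjusted p was below 0.05, with the median of each list as a line and dotted lines at 1 and -1. The 10 genes lie between -0.56 and 0.26, while *Acot2* at 2.16 and *Acat1* at -1.75 are the extremes of the further lists.

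The genes whose pattern over the 6 libraries was most like that of *Cpt1a*, among 9573 tested genes whose mean normalized count was 100 or more, were *Cd44*, *Kctd10* and *Plod1*. The root mean square distance between their log2 values and those of *Cpt1a*, each centred on its DMSO mean, was 0.0291, 0.0559 and 0.0588. Likeness over 6 libraries is a description only.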

How the data were processed

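Total RNA of RAW264.7 cells was enriched with oligo(dT) beads and made into libraries with the NEBNext Ultra II RNA kit. The submitters' processing notes name Trimmomatic 0.36, STAR 2.5.2b, featureCounts of Subread 1.5.2 and DESeq2; the sources used here do not give the genome build, the annotation or the strand setting. The table used here, as deposited by the authors, holds raw counts of reads per Ensembl gene.

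Groups and replicate numbers come from the sample titles. Counts were filtered by group with the defaults of edgeR 4.0.16 (minimum count 10, minimum total 15; R 4.3.3), scaled by TMM and compared by its quasi-likelihood F test. The p-values of the 12274 genes kept were adjusted by Benjamini-Hochberg, and a call needed an adjusted p below 0.05. Normalized counts are scaled to the mean effective library of 16042438. A total of 12495957 to 20050677 counts per library sets the precision, and 3 counts, the limit that a count of 0 allows, correspond to 0.150 to 0.240 CPM. Libraries of a group differed by more than sampling noise (chi-square per degree of freedom 15.4 to 58.1), so none was treated as a copy of another. This does not show that they are separate cultures.

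The 10 genes, the further lists and the markers were chosen with earlier results of these data known. Named were all 10 genes; of the further lists, every called gene past an absolute log2 fold change of 1, the called genes with the highest and lowest fold change in each list and 16 genes set by name; genes within 1 kb of the 10 that held enough reads or shared exon bases; and the 3 genes most like *Cpt1a*. Results of some genes that this rule selects are left out. Gene names and positions are from GENCODE M21 (GRCm38), with 259 of 49315 rows not in it (0.0102% of counts), and promoters from RefSeq (GRCm38.p6). Levels between genes used the principal transcript. Alternatives were DESeq2 1.42.0, limma-voom (limma 3.58.1), RLE scaling, library size alone, no filter, at least 10 counts in every library, the replicate number as a block, each library left out, an absolute log2 fold change above 1 and, for the ratios, raw counts with a pseudocount of 1. Figures were drawn with matplotlib 3.10.9.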

Additional observations from a re-analysis of the deposited data

How the results depend on the processing

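Of the 10 genes, *Acadl* was called lower in 13 of 13 alternatives, *Etfa* in 9 and *Hadhb* in 1 (the replicate block), and the other 7 in none. The count of these genes called lower, 3 as reported, was 0 with an absolute log2 fold change above 1 and 1 to 2 with 1 library left out. *Hadhb* had an adjusted p of 0.0695 with DESeq2, 0.0516 with limma-voom, 0.0538 with RLE scaling, 0.0577 with library size alone, 0.175 with no filter and 0.0524 with at least 10 counts in every library. The sign of *Cpt1a* turned to -0.02 without DMSO replicate 2, -0.058 without SKI-II replicate 1 and -0.00 without SKI-II replicate 2, within a range of -0.06 to 0.20. *Etfdh* turned to 0.033 without DMSO replicate 3, within -0.14 to 0.03. In the further lists, 10 genes were higher as reported and 4 to 10 with 1 library left out (4 without DMSO replicate 2, 6 without SKI-II replicate 1 or 3), and 18 were lower as reported and 14 to 18 with 1 left out. The cause of these losses was not tested, beyond that fewer libraries enter those fits. The median log2 fold change of all tested genes was 0.00377, 0.0112 with RLE scaling and 0.000489 with library size alone.

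The replicate numbers are shared by the groups, but the deviations of same-numbered libraries correlated at 0.246, 0.010 and 0.458, so not every pair passed 0.1 and the numbers were not taken as a pairing. SKI-II replicate 2 correlated best with DMSO replicate 1 (0.296). With the replicate block, 3 of the 10 genes were lower and 0 higher, and 11 genes of the further lists were higher and 19 lower.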
